A study of Homo sapiens with 20 samples.

Results

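The genes described are 10 of the insulin signalling and mTORC1 pathway: the insulin receptor gene INSR, the insulin receptor substrate genes IRS1, IRS2 and IRS4, the phosphoinositide 3-kinase (PI3K) regulatory subunit genes PIK3R1 and PIK3R3, and DDIT4, DDIT4L, TSC1 and DEPTOR, whose products restrain the kinase mTOR. They were picked by symbol, out of 27896 symbols in the count table, with the transcript holding the most reads standing for each gene, and all 10 had enough reads to be tested. All samples came from HEK293-GR, a line derived from human embryonic kidney in which the glucocorticoid receptor (GR) is constantly expressed. Messenger RNA was sequenced from 4 groups of 4 libraries, all from cells kept in steroid-depleted medium. The siBCOR dex group received small interfering RNAs against the corepressor BCOR at 20 nM for 72 h and, for 6 h, 100 nM of the synthetic glucocorticoid dexamethasone, and the siBCOR EtOH group received the same siRNAs and the ethanol vehicle for 6 h. The siNON dex and siNON EtOH groups received a non-targeting siRNA pool in place of the siRNAs against BCOR, with the same hormone or vehicle. BCOR binding to chromatin was mapped by ChIP-seq after 1 h of dexamethasone or of ethanol, with 2 libraries for each treatment and no siRNA. The line is a single one made to carry the receptor, so the receptor's level is not that of an unmodified tissue.

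Insulin bound to its receptor switches on the receptor's tyrosine kinase, which phosphorylates the IRS proteins, and these recruit PI3K through the SH2 domains of its regulatory subunits. PI3K makes the lipid that brings AKT to the membrane, and AKT relieves the brake that the TSC1 and TSC2 proteins place on RHEB and so on mTORC1. In muscle and other tissues glucocorticoids oppose insulin, and induction of DDIT4 (also called REDD1) and of PIK3R1 is among the changes described there. BCOR is a subunit of a Polycomb-type repressor complex that recognises DNA rich in CG dinucleotides.

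Reads counted over the chosen transcripts ran from 18580294 to 28054808 per library. BCOR itself was at 15.5, 14.8, 14.9 and 13.8 CPM (counts scaled to library size) in siBCOR dex libraries, at 23.5, 22.3, 21.8 and 21.9 CPM in siBCOR EtOH, at 96.8, 102.1, 105.9 and 70.6 CPM in siNON dex and at 226.8, 210.3, 158.8 and 188.6 CPM in siNON EtOH. Every siBCOR library was thus below every siNON library, but the transcript was not gone, and dexamethasone lowered it in siNON cells too, with a log2 fold change of -1.06 ± 0.113 (SE; adjusted p = 1.45e-06, edgeR's quasi-likelihood test with Benjamini-Hochberg adjustment over all genes). The receptor gene NR3C1 averaged 863.8 ± 23.2 CPM in siBCOR dex, 1107 ± 36.4 in siBCOR EtOH, 706.2 ± 29.7 in siNON dex and 997.8 ± 65.3 in siNON EtOH (SD, n = 4 each), and dexamethasone lowered it in both kinds of cell (adjusted p = 8.82e-05 in siBCOR and 1.8e-06 in siNON cells, edgeR). NR3C1 was also higher in siBCOR than in siNON cells under dex, by 0.29 ± 0.0539 (log2, adjusted p = 0.000875, edgeR). Under EtOH that difference was 0.15 ± 0.0539 (adjusted p = 0.0647, edgeR), not a call. Among marker genes, KRT8, KRT18, VIM and NEFL lay between 132.2 and 571.7 CPM in the group means. The other markers of the line were lower, NEFM at 7.64 to 9.06, PAX2 at 2.77 to 4.63 and LHX1 at 1.78 to 3.66 CPM. PTPRC, CD3E, ALB, DCN, MYH7 and CDH5 were all at or under 0.1065 CPM. Among the other markers of foreign cells, COL1A1 was at 26.6 to 34.3 CPM and CD68 at 9.30 to 14 CPM. PLIN1 was at 0.776 to 1.44 CPM, and APOA1, PECAM1, ACTA1 and ADIPOQ lay between 0.0929 and 0.648 CPM. Of the libraries, 3 stood apart from their group: siNON dex replicate 4, siNON EtOH replicate 3 and siBCOR EtOH replicate 2 differed from the other replicates by 0.373, 0.355 and 0.342 log2 units (root mean square over genes), against 0.191 to 0.264 for the remaining libraries. The labels call the RNA samples biological replicates and say no more of how they were grown apart. A p-value thus sets a difference between group means against the spread between these samples only, estimated over all 16 libraries together. In RNA from whole cultures, fewer cells expressing a gene and less RNA per cell cannot be told apart.

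Levels between genes were compared per kilobase of exon (CPM per kb). In siNON dex cells DDIT4 stood first at 121 ± 5.22, followed by IRS4 at 35.6 ± 1.55, PIK3R3 at 9.54 ± 0.394 and DEPTOR at 7.77 ± 0.783 CPM per kb (SD, n = 4). In siNON EtOH cells IRS4 stood first at 136 ± 15.8, ahead of DDIT4 at 90.5 ± 19.4 and PIK3R3 at 13.9 ± 0.772 CPM per kb. There INSR, TSC1, IRS2, PIK3R1 and DEPTOR followed in that order, at means from 5.09 down to 4.01 CPM per kb; neighbours in the order lay within their SDs, and the SDs of its ends, INSR and DEPTOR, did not meet. IRS1 (0.920 and 0.921) and DDIT4L (0.527 and 0.671) were lowest in both the dex and the EtOH cells of the siNON pair. IRS4 was thus by far the most abundant of the substrate transcripts in these cells, at both hormone states.

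The promoter sequences below show the CG dinucleotides at the starts of 3 of these genes, chosen because TSC1 carried a BCOR peak over its start, and IRS4 and PIK3R1 were the pair of members with the widest range over the 4 groups. Each is RefSeq's window from 250 bases before to 50 after the start on GRCh38.p14, in the direction of transcription, with CG dinucleotides in capitals. The windows are chr5:68215506-68215805 (plus strand) for PIK3R1, chr9:132944567-132944866 (minus strand) for TSC1 and chrX:108736514-108736813 (minus strand) for IRS4, the first listed start of each.
PIK3R1: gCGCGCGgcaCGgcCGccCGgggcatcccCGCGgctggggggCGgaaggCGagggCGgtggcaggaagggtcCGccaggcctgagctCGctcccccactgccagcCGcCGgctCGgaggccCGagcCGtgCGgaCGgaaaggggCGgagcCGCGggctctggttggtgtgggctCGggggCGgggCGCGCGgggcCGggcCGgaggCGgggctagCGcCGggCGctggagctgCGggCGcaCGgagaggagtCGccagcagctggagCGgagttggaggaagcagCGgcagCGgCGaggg
TSC1: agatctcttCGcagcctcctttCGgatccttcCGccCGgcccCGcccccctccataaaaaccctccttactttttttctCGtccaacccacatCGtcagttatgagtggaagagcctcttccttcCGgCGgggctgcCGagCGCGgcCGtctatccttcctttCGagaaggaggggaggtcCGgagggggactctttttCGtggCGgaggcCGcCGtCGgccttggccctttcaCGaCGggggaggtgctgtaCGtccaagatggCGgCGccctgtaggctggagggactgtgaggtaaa
IRS4: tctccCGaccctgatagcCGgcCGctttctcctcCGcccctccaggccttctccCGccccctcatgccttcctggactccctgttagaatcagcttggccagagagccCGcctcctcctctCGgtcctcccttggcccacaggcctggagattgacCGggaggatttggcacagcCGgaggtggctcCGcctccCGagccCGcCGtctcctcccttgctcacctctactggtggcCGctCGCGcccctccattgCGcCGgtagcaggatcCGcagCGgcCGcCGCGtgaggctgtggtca

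The PIK3R1 window holds 42 CG dinucleotides, the TSC1 window 25 and the IRS4 window 23, against a median of 14 (quartiles 4 and 28) over the 35116 windows of the RefSeq table. For 9 of the 10 genes the table had a window, and the first listed windows of those genes held 17 to 50 CG dinucleotides. For the glucocorticoid response element only an exact string was searched, on both strands: AGAACA and TGTTCT with 3 bases of any kind between them. It was in none of these windows and in 0.00285% of all windows. A string so rare could hardly be met in so few windows, so its absence tells nothing of looser forms of the element. The half-site, AGAACA on either strand, was in the first listed window of PIK3R3 alone, and in 14.8% of all windows. Among later listed windows, numbers 3 and 4 of PIK3R1 and numbers 2 and 4 of PIK3R3 also held it. A match or its absence describes only these letters in these 300 bases.

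Of the receptor and its substrates, IRS4 was the gene with the largest hormone response of the 10. IRS4 (chrX:107975727-107979607, minus strand, hg19) encodes a docking protein for the insulin and IGF1 receptors. Its level was 196.1, 205.4, 210.6 and 197.9 CPM in siBCOR dex, against 551, 574.4, 529.5 and 561.3 CPM in siBCOR EtOH. In siNON cells it was 139.2, 137.5, 145.3 and 130.7 CPM with dex, against 550.6, 572.8, 551.9 and 437.3 CPM with EtOH. All 8 dex libraries lay below all 8 EtOH libraries, and the siBCOR dex libraries all lay above the siNON dex libraries. IRS4 fell with dexamethasone by 1.45 ± 0.0715 on the log2 scale in siBCOR cells (2.74-fold lower, adjusted p = 6.22e-11) and by 1.93 ± 0.0727 in siNON cells (3.82-fold lower, adjusted p = 1.3e-12, edgeR's quasi-likelihood test). Under dex it was 1.46-fold higher in siBCOR than in siNON cells (log2 0.55 ± 0.0708, adjusted p = 3.8e-05 in edgeR), while under EtOH the difference was 0.07 ± 0.0699 (adjusted p = 0.555).

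INSR (chr19:7112266-7294313, minus strand, hg19) moved less. It was at 47.5, 49.1, 48.5 and 42.9 CPM in siBCOR dex, against 66.5, 58.4, 53.8 and 55.9 CPM in siBCOR EtOH, and these groups did not overlap. In siNON dex it was at 53.5, 52.2, 53.2 and 43.9 CPM, against 49.8, 53.1, 40.7 and 45.8 CPM in siNON EtOH, where the groups overlapped. By edgeR's quasi-likelihood test INSR fell with dex in siBCOR cells by 0.32 ± 0.0912 (log2, adjusted p = 0.0173), and its log2 fold change in siNON cells was 0.10 ± 0.0915 (adjusted p = 0.508). Without siBCOR dex replicate 4 or siBCOR EtOH replicate 1 the siBCOR call was lost (adjusted p = 0.0596 and 0.0655 in edgeR). Under EtOH, INSR was higher in siBCOR than in siNON cells by 0.31 ± 0.0913 (log2, adjusted p = 0.027 in edgeR), a call made under 17 of 26 alternatives. It was lost without siBCOR EtOH replicate 1 (0.105), without siNON EtOH replicate 3 (0.156) and without siNON EtOH replicate 4 (0.0719), these being adjusted p-values from edgeR.

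IRS1 (chr2:227596033-227663506, minus strand, hg19), the substrate best known from insulin action in muscle and fat, was rare here. It was at 6.02, 5.33, 6.48 and 5.53 CPM in siBCOR dex and at 6.43, 7.14, 5.39 and 6.22 CPM in siBCOR EtOH, against 8.06, 9.51, 8.13 and 6.45 CPM in siNON dex and 8.84, 7.498, 7.83 and 7.99 CPM in siNON EtOH. The siBCOR libraries were the lower ones, with an overlap only under dex, where siNON replicate 4 lay within the siBCOR range. IRS1 was lower in siBCOR than in siNON cells by 0.47 ± 0.115 under dex (log2, adjusted p = 0.00561, edgeR) and by 0.35 ± 0.114 under EtOH (adjusted p = 0.0422, edgeR). The call under dex was made in all 26 alternatives and that under EtOH in 12 of them. Leaving out any of 8 libraries took the EtOH call away in edgeR: siBCOR dex replicate 1 (adjusted p = 0.0538), siBCOR EtOH replicates 1, 3 and 4 (0.0803, 0.13 and 0.0881), siNON dex replicates 1 and 3 (0.0545 and 0.0516) and siNON EtOH replicates 1 and 4 (0.124 and 0.0796). With the replicate number as a block it was lost as well (adjusted p = 0.0527). The dex libraries named are not in the EtOH comparison and act on it only through the shared fit. IRS1's log2 fold change with dex was -0.11 ± 0.117 in siBCOR cells and 0.00 ± 0.112 in siNON cells, and neither passed.

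IRS2 (chr13:110406184-110438914, minus strand, hg19), the substrate that in mouse liver and pancreatic beta cells carries much of the insulin signal, did not pass in any comparison. It ranged from 26.7 to 44.6 CPM in siBCOR dex, from 30.4 to 39.8 CPM in siBCOR EtOH, from 29.1 to 42.0 CPM in siNON dex and from 24.3 to 37.6 CPM in siNON EtOH. Its log2 fold change with dex was 0.16 ± 0.158 in siBCOR cells and 0.23 ± 0.159 in siNON cells. With SEs of 0.158 and 0.159, changes much smaller than those of PIK3R3 could not be resolved. The 3 substrate genes thus differed in their calls: IRS4 fell with hormone and was higher with BCOR depletion under dex, IRS1 was lower with BCOR depletion, and IRS2 had no call.

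**Figure D1:**
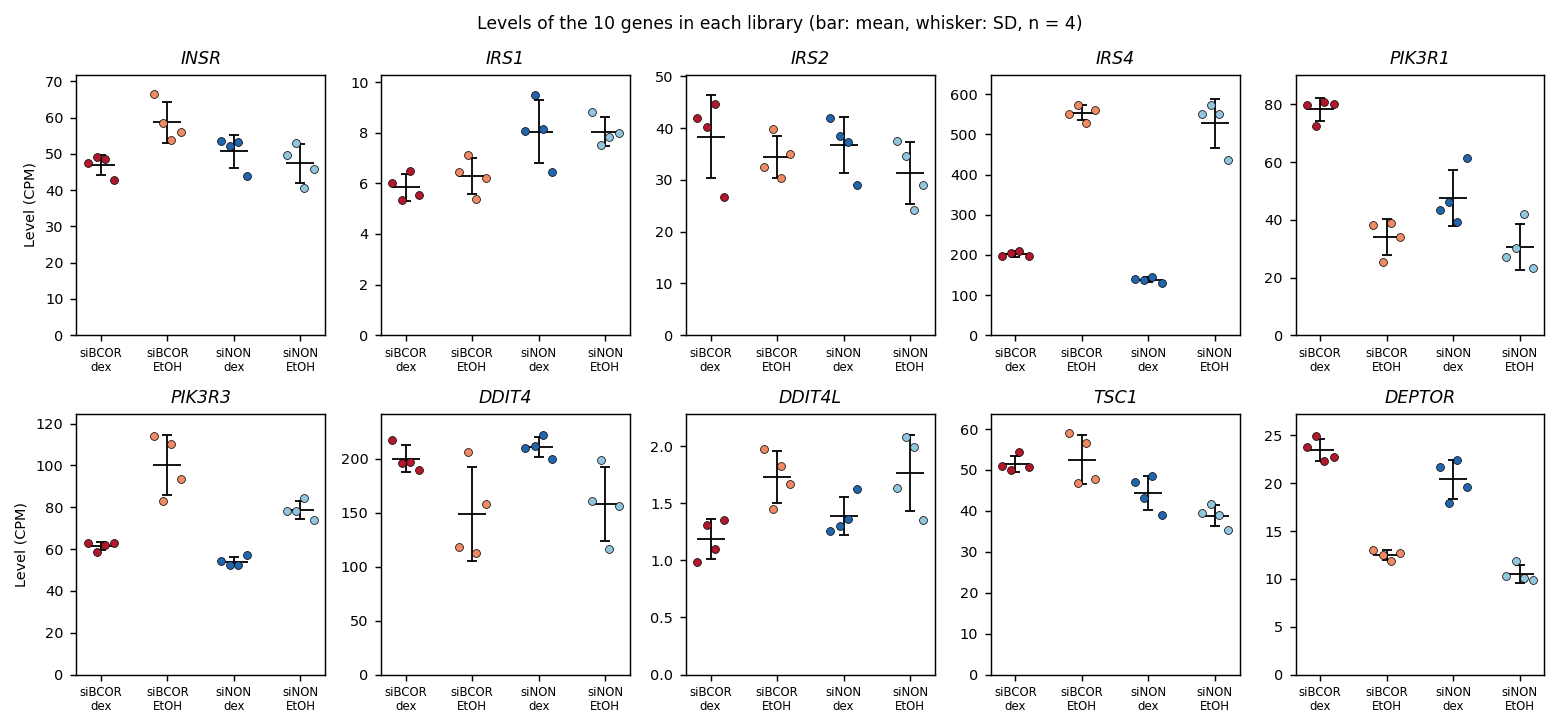
Levels of the 10 genes in CPM (y axis, linear, from 0) in the 16 RNA libraries, by group (x axis); each point is 1 library, the bar the mean and the whisker the SD (n = 4). IRS4 lies at 130.7 to 210.6 CPM in all dex libraries and at 437.3 to 574.4 CPM in all EtOH libraries, and DEPTOR is at 17.9 CPM or more in every dex library and at 13.1 CPM or less in every EtOH library.

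The regulatory subunit genes of PI3K moved in opposite directions. PIK3R1 (chr5:67511584-67597649, plus strand, hg19) encodes p85alpha and its shorter forms, which hold the catalytic subunit stable and inactive until an IRS protein is bound. It was at 79.8, 72.4, 80.9 and 80.1 CPM in siBCOR dex, against 38.3, 25.3, 38.9 and 34.2 CPM in siBCOR EtOH. In siNON cells it was at 43.5, 46.0, 39.3 and 61.3 CPM with dex, against 27.1, 30.1, 41.8 and 23.3 CPM with EtOH. The siBCOR dex libraries lay above all others, and in siNON cells the groups overlapped because EtOH replicate 3 exceeded dex replicate 3. PIK3R1 rose with dex by 1.20 ± 0.168 in siBCOR cells (log2, 2.29-fold, adjusted p = 4.36e-05) and by 0.63 ± 0.168 in siNON cells (1.55-fold, adjusted p = 0.0121, edgeR's quasi-likelihood test). Under dex it was higher in siBCOR than in siNON cells by 0.72 ± 0.166 (log2, adjusted p = 0.00375 in edgeR), and under EtOH by 0.16 ± 0.169 (adjusted p = 0.576).

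The same libraries that stood apart were at the ends of PIK3R1's range: siNON dex replicate 4 and siNON EtOH replicate 3 were highest of their groups, and siBCOR EtOH replicate 2 was lowest of its group. PIK3CA, the gene of the catalytic subunit p110alpha, had the same extremes, with 25.4 CPM in siNON dex replicate 4 (others 14.0 to 16.6), 23.9 CPM in siNON EtOH replicate 3 (others 12.6 to 13.2) and 14.4 CPM in siBCOR EtOH replicate 2 (others 18.6 to 21.2). The part of these libraries' difference in PIK3R1's values was not tested. With all 3 libraries left out, PIK3R1's log2 fold change with dex was 1.09 in siBCOR cells (adjusted p = 1.29e-10) and 0.67 in siNON cells (adjusted p = 1.52e-06, edgeR), and the difference between siBCOR and siNON under EtOH became a call (0.41 ± 0.0856, adjusted p = 0.000717 in edgeR). Over the 16 fits that left out 1 library each, the call with dex was kept in both kinds of cell. The long transcript of PIK3R1 has 1162 more exon bases than a shorter one in the table, and its excess of reads over that transcript averaged 17.0 ± 0.468 CPM in siBCOR dex, 8.08 ± 1.4 CPM in siBCOR EtOH, 10.8 ± 1.31 CPM in siNON dex and 6.90 ± 1.42 CPM in siNON EtOH (SD, n = 4). Reads over the shorter transcript's exons averaged 61.3 ± 3.64, 26.1 ± 4.88, 36.8 ± 8.31 and 23.7 ± 6.61 CPM in the same order of groups. Reads of the long transcript also count there where exons are shared, so these are not levels of the shorter transcript alone. Both the excess and this count were highest in siBCOR dex.

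PIK3R3 (chr1:46505812-46598380, minus strand, hg19) encodes p55gamma, a shorter regulatory subunit. It was at 62.7, 58.7, 62.1 and 62.8 CPM in siBCOR dex, against 113.9, 83.1, 110.2 and 93.3 CPM in siBCOR EtOH. In siNON cells it was at 54.4, 52.3, 52.3 and 57.0 CPM with dex, against 78.4, 78.3, 84.5 and 73.9 CPM with EtOH. Within each siRNA condition every dex library was below every EtOH library. PIK3R3 fell with dex by 0.70 ± 0.0834 in siBCOR cells (log2, 1.63-fold lower, adjusted p = 6.04e-06) and by 0.55 ± 0.0838 in siNON cells (1.46-fold lower, adjusted p = 0.000104, edgeR's quasi-likelihood test). Under EtOH it was higher in siBCOR than in siNON cells by 0.35 ± 0.0829 (log2, adjusted p = 0.00892 in edgeR), and this call was lost when only the groups compared were fitted (adjusted p = 0.0561). Under dex the difference was 0.19 ± 0.0838 (adjusted p = 0.0804), and it became a call without siBCOR EtOH replicate 2 (adjusted p = 0.0341 in edgeR). A readthrough transcript, LOC110117498-PIK3R3, covers the same exons on the same strand and had 91% as many reads, so the values cannot be assigned to PIK3R3 alone.

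DDIT4 and DDIT4L encode related proteins that inhibit mTORC1 through the TSC complex. DDIT4 (chr10:74033677-74035794, plus strand, hg19) was at 217.6, 195.5, 196.7 and 189.7 CPM in siBCOR dex, against 118.3, 205.8, 112.1 and 157.9 CPM in siBCOR EtOH. In siNON cells it was at 210.1, 212, 221.9 and 199.7 CPM with dex, against 160.5, 199.1, 116.3 and 155.6 CPM with EtOH. The dex libraries sat close together, with SDs of 12.2 CPM in siBCOR and 9.1 CPM in siNON, and the EtOH libraries were spread, with SDs of 43.3 and 33.9 CPM. In siNON cells every dex library was above every EtOH library, by 0.6 CPM at the closest pair, and in siBCOR cells EtOH replicate 2 lay among the dex libraries. DDIT4's log2 fold change with dex was 0.43 ± 0.162 in siBCOR cells (adjusted p = 0.0659) and 0.42 ± 0.162 in siNON cells (adjusted p = 0.0853), so neither passed edgeR's quasi-likelihood test.

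That outcome depended on single vehicle libraries, in part only through the shared estimate of spread. Without siBCOR EtOH replicate 2, DDIT4 passed with dex in siBCOR cells (0.63 ± 0.139, adjusted p = 0.00386) and in siNON cells (0.42 ± 0.127, adjusted p = 0.0269, edgeR). Without siNON EtOH replicate 2 it passed in siNON cells (0.55 ± 0.165, adjusted p = 0.0302, edgeR), and without siNON EtOH replicate 3 in siBCOR cells (0.43 ± 0.143, adjusted p = 0.032, edgeR). The siNON comparison does not hold siBCOR EtOH replicate 2, nor the siBCOR comparison siNON EtOH replicate 3. In these cases the log2 fold change stayed at 0.42 and 0.43, and the SE fell from 0.162 to 0.127 and 0.143. With the replicate number as a block DDIT4 passed in both kinds of cell, with adjusted p-values of 0.0325 in siBCOR and 0.0439 in siNON cells (edgeR). Over the 26 alternatives the log2 fold change ran from 0.32 to 0.64 in siBCOR cells, where 5 made the call, and from 0.28 to 0.55 in siNON cells, where 4 did. BCOR depletion gave no call, with -0.08 ± 0.162 under dex and -0.09 ± 0.162 under EtOH; under EtOH it became a call with the 3 libraries that stood apart left out (-0.46 ± 0.101, adjusted p = 0.00104 in edgeR).

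ATF4, the stress transcription factor known to activate DDIT4, was also spread among vehicle libraries. It was at 430.9, 683.7, 444.2 and 599.1 CPM in siBCOR EtOH and at 649.9, 816, 568.1 and 713.8 CPM in siNON EtOH, and in both groups replicate 2 was highest for ATF4 and for DDIT4. Under dex ATF4 was at 359.5, 392.8, 361.9 and 364.9 CPM in siBCOR cells and at 574.5, 538.5, 692.2 and 523.4 CPM in siNON cells. In siBCOR cells every dex library had less ATF4 than every EtOH library, and more DDIT4 than each EtOH library but replicate 2. In siNON dex ATF4 was spread as well, with an SD of 76.4 CPM, where DDIT4's SD was 9.1 CPM. HIF1A, another gene of the pathway list, ran the other way in the vehicle libraries. It was lowest in siBCOR EtOH replicate 2 (144.4 CPM, others 180.6 to 212.1) and highest in siNON EtOH replicate 3 (216.3 CPM), where DDIT4 was lowest. Both are among the libraries that stood apart over all genes. ATF4's part in the spread of DDIT4 was not tested.

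**Figure D2:**
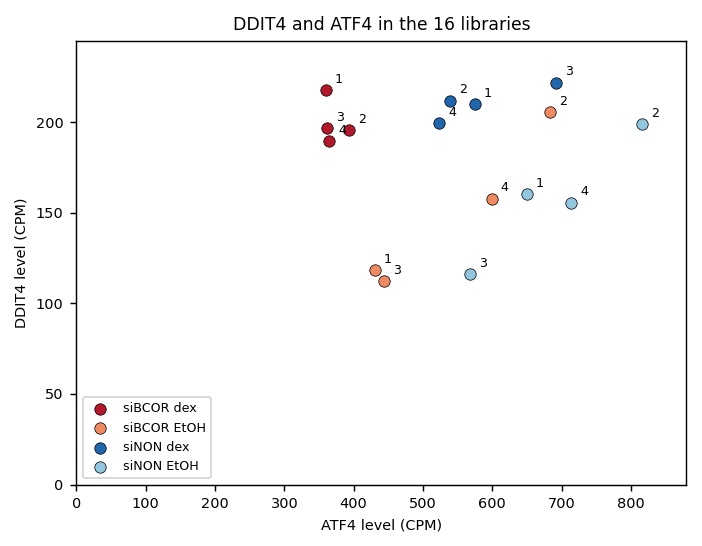
DDIT4 level (y axis, CPM) against ATF4 level (x axis, CPM) in the 16 RNA libraries; each point is 1 library, numbered by replicate and coloured by group. The dex libraries lie between 189.7 and 221.9 CPM of DDIT4 over ATF4 levels of 359.5 to 692.2 CPM, and the EtOH libraries spread from 112.1 to 205.8 CPM of DDIT4.

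DDIT4L (chr4:101107027-101111655, minus strand, hg19) was near the lower limit of detection. Its counts summed over a group were 113 reads in siBCOR dex, 153 in siBCOR EtOH, 119 in siNON dex and 161 in siNON EtOH. By edgeR's quasi-likelihood test it fell with dex in siBCOR cells by 0.55 ± 0.166 (log2, adjusted p = 0.0221), from libraries of 0.985 to 1.36 CPM with dex, against 1.45 to 1.97 CPM with EtOH. The call was lost without siBCOR dex replicate 1 (adjusted p = 0.0796), siBCOR dex replicate 3 (0.0555) or siBCOR EtOH replicate 1 (0.0742). In siNON cells its log2 fold change was -0.36 ± 0.163 (adjusted p = 0.152, edgeR).

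TSC1 (chr9:135766735-135820020, minus strand, hg19), the scaffold of the TSC complex, differed with BCOR depletion. It was at 50.9, 50.01, 54.4 and 50.8 CPM in siBCOR dex, against 47.0, 43.0, 48.4 and 39.0 CPM in siNON dex. Under EtOH it was at 58.9, 46.9, 56.6 and 47.8 CPM in siBCOR cells, against 39.5, 41.6, 39.1 and 35.3 CPM in siNON cells. Under either treatment all siBCOR libraries lay above all siNON libraries. TSC1 was 1.35-fold higher in siBCOR than in siNON cells under EtOH (log2 0.44 ± 0.0865, adjusted p = 0.00265, edgeR), a call made in all 26 alternatives. Under dex the difference was 0.21 ± 0.0862 (adjusted p = 0.0565, edgeR), and it passed without siBCOR EtOH replicate 1 (0.047), siBCOR EtOH replicate 2 (0.0439) or siNON dex replicate 3 (0.0499) and with the replicate number as a block (0.0301). TSC1 did not pass with dex, at -0.03 ± 0.0859 in siBCOR cells and 0.19 ± 0.0867 in siNON cells (adjusted p = 0.836 and 0.146, edgeR), and the siNON value passed without siNON dex replicate 4 (0.25, adjusted p = 0.044).

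DEPTOR (chr8:120885895-121063157, plus strand, hg19) encodes a protein that binds mTOR and inhibits both of its complexes. It was at 23.8, 24.9, 22.4 and 22.7 CPM in siBCOR dex, against 13.1, 12.5, 11.8 and 12.8 CPM in siBCOR EtOH. In siNON cells it was at 21.7, 17.9, 22.4 and 19.6 CPM with dex, against 10.3, 11.9, 10.1 and 9.89 CPM with EtOH. All 8 dex libraries lay above all 8 EtOH libraries. DEPTOR rose with dex by 0.91 ± 0.0836 in siBCOR cells (log2, 1.87-fold, adjusted p = 2.73e-07) and by 0.96 ± 0.0849 in siNON cells (1.94-fold, adjusted p = 1.46e-07, edgeR's quasi-likelihood test), in all 26 alternatives. Its difference between siBCOR and siNON cells was 0.20 ± 0.0815 under dex (adjusted p = 0.0578) and 0.25 ± 0.0863 under EtOH (adjusted p = 0.0533), both short of the threshold in edgeR. The value under dex passed without siNON dex replicate 3 (0.0428) or siNON EtOH replicate 2 (0.0467), and that under EtOH without siNON dex replicate 2 (0.0433) or siNON EtOH replicate 2 (0.0242).

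Counted together, dexamethasone raised 2 and lowered 4 of the 10 genes in siBCOR cells, where 23.1% of the 16432 genes tested were called (10.5% higher, 12.5% lower). In siNON cells it raised 2 and lowered 2, where 19.4% of all genes were called (10.7% higher, 8.64% lower). The genes with calls in both kinds of cell were IRS4 and PIK3R3, which fell, and PIK3R1 and DEPTOR, which rose. The comparison of siBCOR with siNON cells gave 2 higher and 1 lower under dex, where 39.5% of all genes were called (20.7% higher, 18.8% lower), and 3 higher and 1 lower under EtOH, where 17.1% were called (8.87% higher, 8.23% lower). The members' count under dex is thus no more than the share among all genes. Libraries of the compared groups did not overlap for 6 members with dex in siBCOR (30.7% of all genes), for 4 with dex in siNON (19.9%), for 4 between siBCOR and siNON under dex (34.2%) and for 3 under EtOH (18.0%). The median log2 fold change over the 10 genes was -0.07 with dex in siBCOR and 0.15 with dex in siNON cells, and 0.13 under dex and 0.15 under EtOH for siBCOR against siNON, against 0.00, 0.00, 0.02 and 0.03 over all genes. Scaling moved the split of all genes between siBCOR and siNON cells: under dex 3405 were higher and 3084 lower, and with library totals alone 4493 and 2299; under EtOH 1457 were higher and 1352 lower, with library totals alone 1974 and 1098, and with DESeq2's size factors 1048 and 1539. The dex comparisons share their EtOH libraries with the comparisons of siBCOR against siNON, so these calls are not independent of each other.

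**Figure D3:**
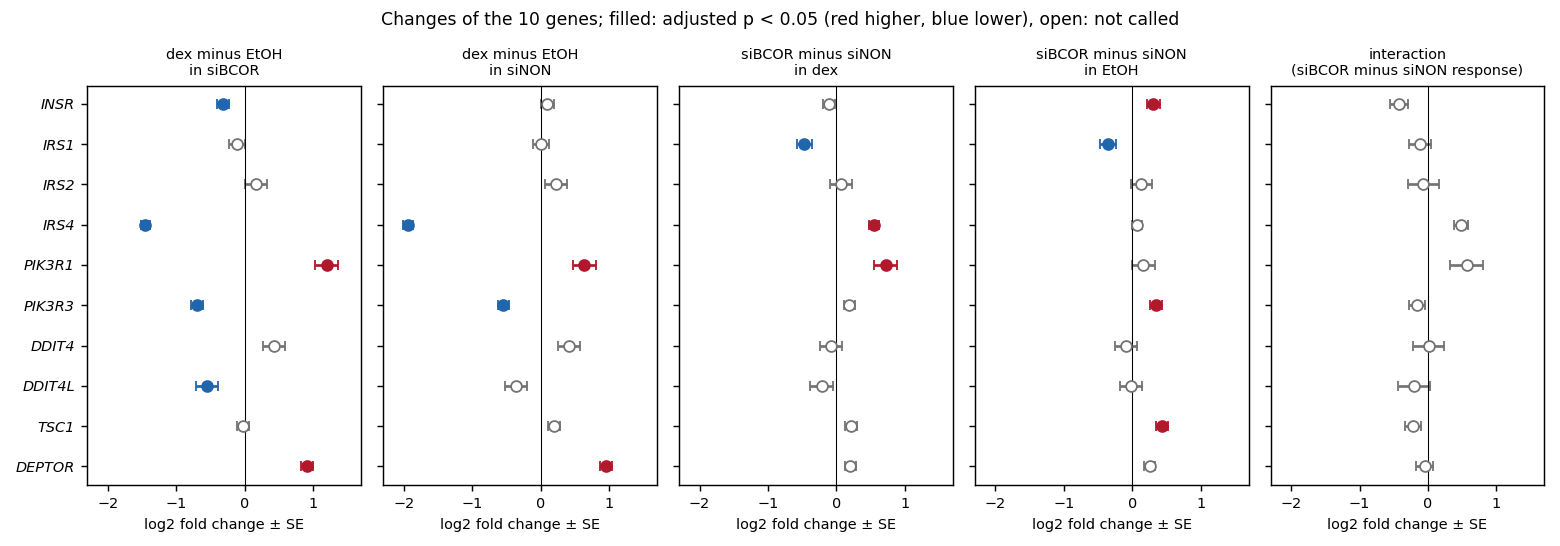
Log2 fold change ± SE (x axis) of the 10 genes (y axis) in the 5 comparisons, 4 libraries a group; filled points passed an adjusted p of 0.05 in edgeR and open points did not. IRS4 lies at -1.45 and -1.93 in the dex panels, and no point is filled for the difference between the hormone's responses.

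Whether BCOR depletion altered the hormone's effect was tested as the response in siBCOR cells minus that in siNON cells. None of the 10 genes passed in edgeR, where 0.0974% of all genes did (0.0183% higher, 0.0791% lower). Of the 10, 3 had an unadjusted p under 0.05 in edgeR, as did 3164 of all 16432 genes. DESeq2 called 1 of them, IRS4, and 0.584% of all genes. IRS4's difference was 0.48 ± 0.0993 (log2, adjusted p = 0.101 in edgeR), a smaller fall in siBCOR cells, and DESeq2 gave 0.49 ± 0.11 (adjusted p = 0.00407). PIK3R1's difference was 0.56 ± 0.236 (adjusted p = 0.239) and INSR's was -0.42 ± 0.129 (adjusted p = 0.196, both in edgeR). Without siNON dex replicate 4 all 3 passed in edgeR, with adjusted p-values of 0.0267 for IRS4, 0.042 for PIK3R1 and 0.0299 for INSR, and 2537 genes of the whole table passed in place of 16. Without siNON EtOH replicate 4, IRS4 alone of the 10 passed (0.56 ± 0.0714, adjusted p = 0.00437 in edgeR). For the remaining 7 genes the difference between the responses was not called under any of the 25 alternatives.

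The other genes of the pathway were taken from a list of 116, of which 109 were tested. With dex 21 rose and 22 fell in siBCOR cells, and 27 rose and 10 fell in siNON cells. These are 39.4% and 33.9% of those tested, against 23.1% and 19.4% over all genes. The list holds known glucocorticoid targets such as SGK1 and was chosen with earlier results of these data known. Its higher share of calls can come from that choice and is not a result about the pathway. For siBCOR against siNON cells, 28 were higher and 25 lower under dex (48.6%, against 39.5% of all genes). Under EtOH 15 were higher and 10 lower (22.9%, against 17.1% of all genes). The 3 libraries that stood apart weigh on the last count: with all of them left out 83 genes passed under dex and 60 under EtOH, while the share called over all genes tested went up as well, to 57.4% under dex and 38.7% under EtOH. The difference between the responses passed for 0 of the 109 in edgeR (0.0974% of all genes) and for 1 in DESeq2 (0.584% of all genes). An unadjusted p under 0.05 in edgeR was seen for 21 of the 109 and for 3164 of all 16432 genes.

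At the top of the pathway, IGF1, a ligand of the IGF1 receptor, rose with dex by 2.44 ± 0.212 in siBCOR and 2.26 ± 0.226 in siNON cells (log2), though it stayed rare, at 1.81 ± 0.125 CPM in siBCOR dex, against 0.331 ± 0.0456 CPM in siBCOR EtOH. IGF2, a fetal growth factor, was lower in siBCOR than in siNON cells by 1.42 ± 0.247 under dex and by 1.15 ± 0.222 under EtOH. SOCS1, which targets IRS proteins for degradation, rose with dex by 1.87 ± 0.273 in siBCOR and 1.702 ± 0.281 in siNON cells, and the adaptor gene SH2B3 fell by 0.89 ± 0.096 and 0.55 ± 0.0956. Adjusted p-values for these 4 genes ran from 1.23e-07 to 0.00219 in edgeR. Receptor proximal genes thus moved in both directions with hormone, as the 10 members did.

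Among the PI3K subunits on the list, PIK3R2, which encodes the regulatory subunit p85beta, rose with dex by 0.35 ± 0.103 in siBCOR and by 0.62 ± 0.103 in siNON cells (adjusted p = 0.0191 and 0.000253, edgeR). The catalytic subunit gene PIK3CB was higher in siBCOR than in siNON cells by 0.51 ± 0.0962 under dex and 0.54 ± 0.0961 under EtOH (adjusted p = 0.000944 and 0.00121, edgeR). PIK3CD and PIK3R5, subunits best known from leukocytes, were lower in siBCOR than in siNON cells under dex, by 0.62 ± 0.123 and 0.77 ± 0.134 (adjusted p = 0.00136 and 0.00051, edgeR). Of the 10 subunit genes tested, 3 rose and 3 fell with dex in siBCOR cells, where 23.1% of all genes were called. In siNON cells, where 19.4% of all genes were called, 1 subunit gene rose and none fell. PIK3R1 and PIK3R3, counted as members, are not in these numbers.

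Downstream, SGK1, a kinase related to AKT and a known glucocorticoid target, rose most of the 109: it was at 93.1, 84.5, 90.7 and 91.3 CPM in siBCOR dex, against 4.73, 5.30, 3.81 and 4.87 CPM in siBCOR EtOH. Its log2 fold change was 4.26 ± 0.105 in siBCOR and 4.35 ± 0.105 in siNON cells (adjusted p = 5.09e-15 and 3.59e-15, edgeR). Of the effectors, the autophagy kinase gene ULK1 rose with dex by 1.14 ± 0.15 in siBCOR and 1.67 ± 0.152 in siNON cells, FOXO4, a transcription factor that AKT excludes from the nucleus, by 1.35 ± 0.0677 and 1.36 ± 0.068, and TFEB, a lysosomal regulator under mTORC1, by 0.86 ± 0.0911 and 1.07 ± 0.0892. SREBF1, the lipogenic factor that insulin induces in rodent liver, fell by 0.74 ± 0.136 and 0.58 ± 0.135. Adjusted p-values of these effectors ran from 6.39e-11 to 0.00452 in edgeR.

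FOXO3, the related factor, was lower in siBCOR than in siNON cells, by 0.81 ± 0.0845 under dex and 0.66 ± 0.0852 under EtOH (adjusted p = 5.14e-06 and 8.69e-05, edgeR). AKT1 was lower in siBCOR cells by 0.46 ± 0.0665 under dex and by 0.29 ± 0.0663 under EtOH, and EIF4EBP1, an mTORC1 substrate that holds back translation, by 0.71 ± 0.122 and 0.39 ± 0.121 (adjusted p from 0.00012 to 0.0358, edgeR). RRAGD, one of the RAG GTPases that bring mTORC1 to lysosomes, was higher in siBCOR cells by 0.56 ± 0.0694 under dex and 0.53 ± 0.0691 under EtOH (adjusted p = 2.52e-05 and 9.24e-05, edgeR). Upstream of mTORC1, the amino acid sensor gene CASTOR1 and the stress-induced inhibitor gene SESN1 rose with dex, by 0.85 ± 0.135 and 0.81 ± 0.0957 in siBCOR cells and by 0.86 ± 0.137 and 0.73 ± 0.0957 in siNON cells (adjusted p from 5.45e-06 to 0.000154, edgeR).

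The list's last group held regulators of DDIT4 and genes of glucocorticoid-driven muscle wasting, of which 8 of 10 were tested. In siBCOR cells 4 rose and 2 fell with dex (23.1% of all genes called), and in siNON cells 4 rose and none fell (19.4%). CEBPD, a transcription factor, rose by 4.15 ± 0.204 in siBCOR and 3.58 ± 0.2 in siNON cells, KLF15, a glucocorticoid-induced metabolic regulator, by 1.93 ± 0.0884 and 1.74 ± 0.0884, TXNIP, an inhibitor of glucose uptake, by 1.33 ± 0.139 and 1.60 ± 0.141, and FBXO32, a ubiquitin ligase gene of muscle atrophy, by 0.99 ± 0.0644 and 0.68 ± 0.0653 (log2, adjusted p from 2.55e-11 to 1.32e-06, edgeR). ATF4 fell with dex in siBCOR cells, by 0.54 ± 0.137 (adjusted p = 0.00773, edgeR), and under dex was lower in siBCOR than in siNON cells by 0.65 ± 0.137 (adjusted p = 0.00201).

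**Figure D4:**
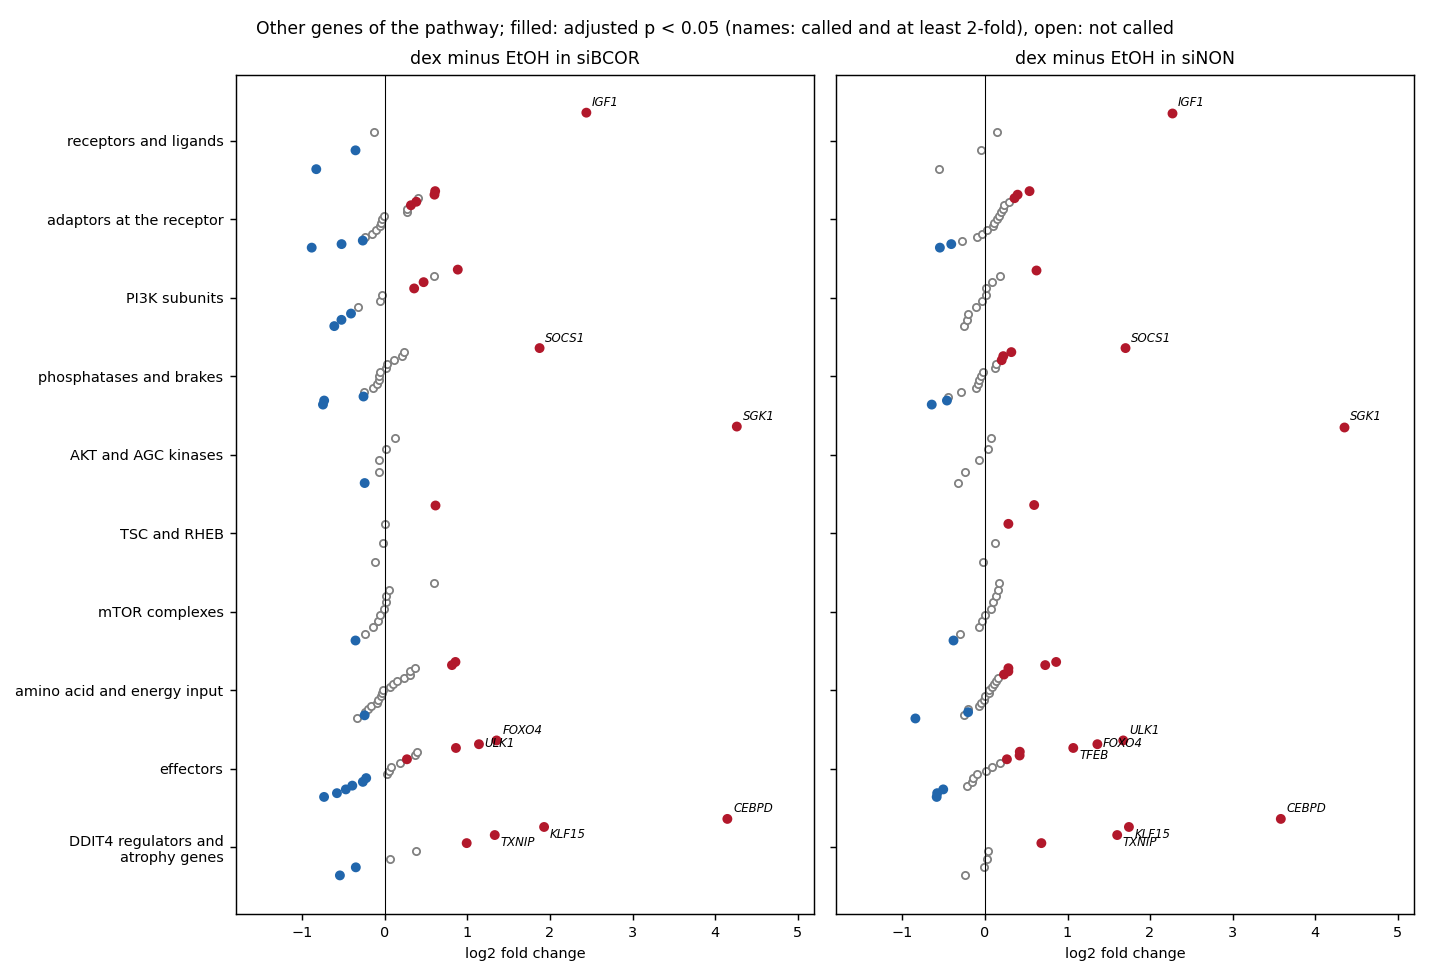
Log2 fold change with dex (x axis) of the 109 tested genes of the pathway list, grouped by role (y axis) and ordered by value within a role, in siBCOR cells (left) and siNON cells (right); filled points passed an adjusted p of 0.05 in edgeR. SGK1 is at 4.26 and 4.35 and CEBPD at 4.15 and 3.58, far from the other genes of their roles.

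The authors give BCOR binding sites as 3 lists, of 3055 dex-enriched, 267 vehicle-enriched and 8587 shared peaks on hg19, and the sources used here do not give the rule that divides them. Within 50 kb of the transcription start site, 7 of the 10 genes had a peak of any class, against 54.3% of all genes tested. A dex-enriched peak was there for 5 genes (13.6% of all), a shared peak for 6 (47.8% of all) and a vehicle-enriched peak for none (2.74% of all). At TSC1 a shared peak, chr9:135819960-135820278, covered the start site itself; the window printed above for that start is on the newer build, and the builds were not converted. INSR had a shared peak at chr19:7292859-7293193, 1.29 kb downstream of its start, and a dex-enriched peak at chr19:7264718-7265052, 29.4 kb downstream. Distances are to the peak's centre, and the files do not say which of these positions are exons or introns.

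Both peaks near the IRS2 start were dex-enriched: chr13:110441107-110441441 lay 2.36 kb upstream and chr13:110430313-110430647 8.43 kb downstream, inside the gene, although the IRS2 transcript did not pass with hormone. PIK3R1, which rose, had a dex-enriched peak at chr5:67520412-67520746, 8.99 kb downstream of its start, and a shared one at chr5:67548368-67548702, 37.0 kb downstream, both inside the gene. IRS4, which fell, had a shared peak at chrX:107963635-107963969, 15.8 kb downstream of its start and beyond its end. DDIT4 had 5 peaks within 50 kb but none over the gene: the dex-enriched ones, chr10:74008560-74008894 and chr10:74003540-74003874, lay 24.9 and 30.0 kb upstream, and shared ones lay 45.4 kb upstream and 23.6 and 42.4 kb downstream. Some of these are nearer to the starts of ASCC1 or DNAJB12 than to that of DDIT4.

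DEPTOR, which rose, had a dex-enriched peak at chr8:120931989-120932323, 46.3 kb downstream of its start and inside the gene, and a shared peak 39961 bases upstream that is nearest to the start of TAF2. No peak lay within 50 kb of the start used for PIK3R3, IRS1 or DDIT4L, although PIK3R3 fell with hormone and IRS1 differed with BCOR depletion. The nearest peak was 70.5 kb from the PIK3R3 start used, 2120 kb from that of IRS1 and 1530 kb from that of DDIT4L. With the starts of all listed transcripts counted, 8 genes had a peak within 50 kb in place of 7. PIK3R3 was the one added: a less-read transcript starts at chr1:46640573, towards a shared peak at chr1:46668757-46669093. That peak covers the start of LURAP1. The share over all genes was not taken at the starts of all listed transcripts. ChIP was done at 1 h and RNA at 6 h, and the peak lists hold no height, so binding and change were only set side by side.

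**Figure D5:**
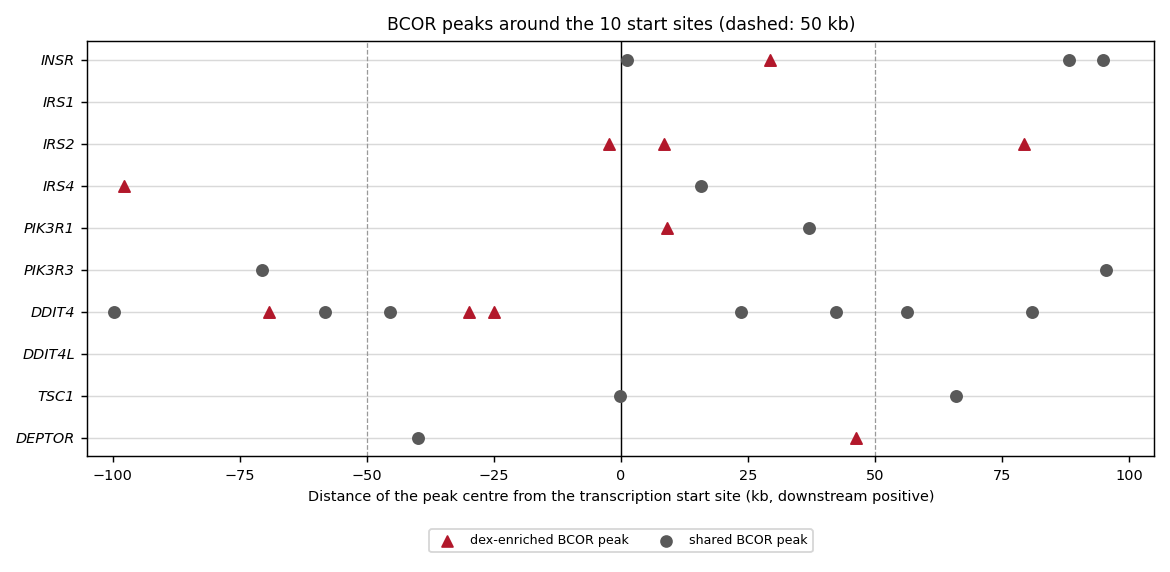
BCOR peaks within 100 kb of the start sites of the 10 genes (y axis), placed by the distance of the peak centre from the start site in kb (x axis, downstream positive); triangles are dex-enriched and circles shared peaks, and the dashed lines mark 50 kb. A circle sits on the start of TSC1, and IRS1 and DDIT4L have no symbol.

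For the 3 members with the widest range of group means, the protein-coding genes of most similar course over the 16 libraries were sought, by the root mean square difference of log2 CPM after centring. IRS4, with a range of 2.00 log2 units, was nearest to LGR5 (0.119), PCDH19 (0.129) and TRIB1 (0.143). PIK3R1, with a range of 1.39, was nearest to SLC5A3 (0.101), ABCD3 (0.108) and AASS (0.117), and DEPTOR, with 1.15, to ELMOD1 (0.115), BTG2 (0.119) and TSPYL2 (0.121). These are the smallest differences found in the whole table and carry no test.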

How the data were processed

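The authors deposited 1 table of raw read counts over exons for 65572 RefSeq transcripts on hg19, made with HOMER without depth adjustment per the file headers; HOMER is version 4.10.3 in the submitters' processing notes, which also list TopHat2, Trimmomatic, FastQC, Bowtie 0.12.9 and bedtools. No strand option is given, so overlapping genes may share reads. In the deposited peak lists every score is 0, so scores were not used.

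The 134 unnamed transcripts (0.0664% of counts) were left out. With 1 transcript per symbol and edgeR's default filter, 16432 genes were tested with TMM scaling (edgeR 4.0.16 and limma 3.58.1 under R 4.3.3), a model of 4 group means over the 16 libraries and quasi-likelihood F tests, two-sided, called at a Benjamini-Hochberg false discovery rate of 0.05. The script was tested on simulated data. Alternatives were DESeq2 1.42.0, other scalings, no filter, another transcript, a replicate block and libraries left out. Spread was estimated once over all libraries in a fit, so leaving out a library could change calls in comparisons without it. Replicates differed beyond sampling noise (chi-square per degree of freedom 2.44 to 40.8 over 24 pairs). The labels' protocol speaks of 4 RNA replicates per group and the series text of fewer; all 16 were used. Genes were named by rule: the members, BCOR and NR3C1, per role and comparison at most the 4 called list genes with the smallest adjusted p, and the nearest genes of the 3 widest members. The members and lists were chosen with earlier results of these data known.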

Additional observations from a re-analysis of the deposited data

Results flagged for a closer look

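In 4 of the 40 combinations of gene and group, 1 library lay farther from the others than Dixon's criterion for 4 samples allows (the gap to the nearest library, over the group's range), which chance does in about 1 of 20 groups. INSR was at 43.89 CPM in siNON dex replicate 4, against 52.25 to 53.46 CPM in the other replicates. IRS4 was at 437.3 CPM in siNON EtOH replicate 4, against 550.6 to 572.8 CPM in the others. In siBCOR dex replicate 2, PIK3R1 was at 72.42 CPM, against 79.79 to 80.88 CPM in the others, and PIK3R3 was at 58.69 CPM, against 62.11 to 62.76 CPM.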

How the results depend on the processing

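The dex calls of IRS4, PIK3R1, PIK3R3 and DEPTOR, the dex calls of IRS4, PIK3R1 and IRS1 for siBCOR against siNON, and the EtOH call of TSC1 were made in all 26 alternatives. For siBCOR against siNON under EtOH, 4 members passed, but 2 did so with upper-quartile scaling, 2 with no filter and 1 with only the groups compared, where 14%, 8.94% and 9.6% of all genes passed. Under dex 3 passed, 6 with library totals only (41.3% of all genes) and 5 with the 3 libraries that stood apart left out (57.4%), an alternative chosen after seeing the data. The difference between the responses passed for 0 members (0.0974% of all genes) and for 1 in DESeq2 (0.584%). It passed for 3 without siNON dex replicate 4 and siNON EtOH replicate 3 (10.8%) or without all 3 libraries (12.5%). Leaving out 1 library each gave 4 to 7 members with dex in siBCOR and 4 to 5 in siNON. For siBCOR against siNON it gave 3 to 5 under dex and 2 to 5 under EtOH. The difference between the responses was called for 0 to 3. Of all genes 17.5 to 27.4%, 15.3 to 24.4%, 25.4 to 49.3%, 10.9 to 20.9% and 0.0121 to 15.3% passed in that order.

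Of the pathway list, for siBCOR against siNON, 53 genes passed under dex and 83 with the 3 libraries left out; under EtOH 25 passed, 14 with only the groups compared, 43 with 2 libraries left out and 60 with 3; for the difference between the responses 0 passed, 1 in DESeq2, 17 with 2 and 20 with 3 left out. Leaving out 1 library each gave 41 to 69, 16 to 37 and 0 to 22, the 22 without siNON dex replicate 4. Among all genes the same fits called 25.4 to 49.3% under dex, 10.9 to 20.9% under EtOH and 0.0121 to 15.3% for the difference. The 15.3% was without siNON dex replicate 4. The whole table moved too: with 3 left out 57.4% of all genes passed under dex, 38.7% under EtOH and 12.5% for the difference. With 2 left out 24.3% passed under EtOH and 10.8% for the difference. Only the groups compared gave 9.6% under EtOH, and DESeq2 gave 0.584% for the difference. Of 50 values, 9 changed sign under some alternative, all uncalled as reported, and 7 of them by less than 1 SE. Those that turned by more were IRS4 under EtOH (-0.01 without siNON EtOH replicate 4, in a range of -0.0114 to 0.1098 over the libraries left out) and IRS2 under EtOH (-0.11 with 3 left out). A window of 10 kb left 4 genes with a BCOR peak, of 7, 2 with a dex-enriched one, of 5, and 2 with a shared one, of 6. The share over all genes was taken at 50 kb only, so the counts at 10 kb cannot be set against it. Why these values moved was not tested.

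Replicate numbers did not pair the libraries: over 24 pairs with the same number the correlation of deviations ran from -0.526 to 0.503, with 6 over 0.1, and 0 libraries correlated best with their own number. With the replicate block 7 members passed with dex in siBCOR and 5 in siNON. For siBCOR against siNON 4 passed under dex and 3 under EtOH, and 0 passed for the difference between the responses. The pathway list gave 43, 36, 56, 25 and 0 in that order. Of all genes 22.8%, 18.4%, 39.1%, 16.2% and 0.0183% passed in the same order. Counts of 113 to 161 reads a group limit DDIT4L.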
